A study of Arabidopsis thaliana with 18 samples.

Results

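The 4 nuclear genes for the small subunit of Rubisco (RBCS1A, AT1G67090; RBCS1B, AT5G38430; RBCS2B, AT5G38420; RBCS3B, AT5G38410), the gene for Rubisco activase (RCA, AT2G39730) and 5 genes for plastid enzymes of the Calvin cycle (PRK, AT1G32060; GAPA1, AT3G26650; GAPB, AT1G42970; FBPase, AT3G54050; SBPASE, AT3G55800) were followed through RNA-seq libraries of Arabidopsis thaliana. The 10 genes were picked out by their locus identifiers, as a named set that no measured value defines, although earlier results of these data were known when the set was chosen. All 10 were found among the 33602 gene models of the count tables. All 10 passed the filter on low counts, and the smallest count of any of them in any library was 6876. In the libraries labelled yak1, RCA and RBCS2B were 1.71-fold and 1.70-fold as high as in Col0. All 4 RBCS genes were higher in the libraries labelled yak1lst8-1 than in lst8-1, where 16.4 % of all genes tested were called higher. None of the 10 genes passed the test in the maktor mutants, where 0.0679 % of all genes were called in each comparison with Col0 by the same model.

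Whole, untreated plants in the Col0 background had been cultured at 20 °C under 16 h days, on a medium that held 0.3 % sucrose, to Boyes stage 1.02. The 6 groups are the wild type Col0, the mutant lst8-1, the mutant yak1, yak1lst8-1, which the labels give as mutant for both genes, and the lines maktor1g1 and maktor1g1maktor5g, all in Col0 and with 3 libraries each. LST8 belongs to the TOR kinase complex, a promoter of growth in well-fed cells, and YAK1 encodes a kinase. Neither the genes hit by the maktor alleles nor the kind of allele in each mutant is given by the labels, although the design text speaks of gene knock-out. The design text gives 2 biological replicates where the titles number 3 libraries, so p-values measure the spread between libraries, which may in part be technical.

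The libraries held 10801464 to 17548790 counts. The LST8-1 transcript was at 50.7 ± 3.55 CPM, the count relative to the scaled library total, in Col0 (SD, n = 3), at 2.31 ± 0.159 in lst8-1 and at 1.53 ± 0.554 in yak1lst8-1. The YAK1 transcript was higher, not lower, with the yak1 label, at 122 ± 20.3 CPM in Col0, 322 ± 75.6 in yak1 and 337 ± 72.0 in yak1lst8-1 (SD, n = 3). A count per gene cannot show whether a full transcript is made, so it neither bears out nor contradicts the label. The yak1 and yak1lst8-1 groups are therefore called the libraries labelled yak1 and yak1lst8-1 in what follows. Libraries numbered 1 stood apart on the third principal component, which held 11.2 % of the variance. Shoot and root genes were both present: the 18 light-harvesting antenna genes summed to 64980 to 119800 CPM per library, and 17 root markers to 2478 to 4417 CPM, with no root marker at 0 in every library.

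Rubisco fixes carbon dioxide onto ribulose bisphosphate in the chloroplast stroma. Its large subunit is encoded in the plastid and its small subunit in the nucleus, by a small gene family whose copies give nearly the same protein. Rubisco activase frees the catalytic site from bound sugar phosphates, and the remaining enzymes of the Calvin cycle reduce the fixed carbon to triose phosphate and regenerate ribulose bisphosphate. These transcripts are among the most abundant of green tissue and are induced by light, partly through G-box and I-box elements of RBCS promoters.

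RBCS1A lies on chromosome 1 and the other 3 RBCS genes lie side by side on chromosome 5, all on the minus strand. In RefSeq's TAIR10.1 annotation, the spans are chr1:25048158-25049667 for RBCS1A, chr5:15376988-15378642 for RBCS3B, chr5:15380907-15382071 for RBCS2B and chr5:15383167-15385320 for RBCS1B. The gaps are 2264 bases between RBCS3B and RBCS2B and 1095 bases between RBCS2B and RBCS1B. The upstream sequence of RBCS2B is shown because this gene differed most between genotypes among the RBCS genes. It covers the 250 bases before the annotated transcript start, chr5:15382072-15382321, is read 5′ to 3′ on the minus strand and overlaps no annotated exon. Capitals mark the letters of the G-box (CACGTG) and of the I-box (GATAAG, or CTTATC where it lies on the opposite strand).
RBCS2B: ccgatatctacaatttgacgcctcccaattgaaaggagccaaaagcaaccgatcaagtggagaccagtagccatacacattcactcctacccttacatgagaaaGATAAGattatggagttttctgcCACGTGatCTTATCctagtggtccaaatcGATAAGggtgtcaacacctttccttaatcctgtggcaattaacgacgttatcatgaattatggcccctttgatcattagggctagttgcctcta

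For comparison between the copies, 30 bases around the G-box are shown for RBCS1A (chr1:25049491-25049520), RBCS2B (chr5:15382177-15382206) and RBCS3B (chr5:15378506-15378535), and 30 bases around the I-boxes for RBCS1B (chr5:15385308-15385337), which had no G-box in its window. All are from TAIR10.1, minus strand, with the same capitals.
RBCS1A: ggaattatcttcCACGTGgcattattccag
RBCS2B: ggagttttctgcCACGTGatCTTATCctag
RBCS3B: ggagttttctgcCACGTGgcCTTATCctag
RBCS1B: tcacaaaagaaaGATAAGATAAGggtgtca

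The G-box letters stood 84 bases before the start in RBCS1A, 123 in RBCS2B and 107 in RBCS3B, counted from the most downstream annotated start. Some annotated transcripts start further upstream, so not every window is purely upstream sequence. The windows of RBCS1A, RBCS1B, RBCS3B, RCA, GAPA1, GAPB and FBPase overlap an annotated exon. Those of RBCS2B, PRK and SBPASE do not. The sites shown for RBCS1A and RBCS3B lie inside the annotated gene spans, and that of RBCS1B lies partly inside. RBCS1A and RBCS1B each held 2 I-boxes, the pair in RBCS1B overlapping, and RBCS2B and RBCS3B each held 3. RCA, PRK and FBPase also held 1 G-box each, FBPase held 2 I-boxes, and GAPA1, GAPB and SBPASE held neither. Both strands were searched. Of the windows of equal length before 31345 genes, 6.1 % held a G-box, 12.9 % an I-box, 0.903 % both and 1.12 % at least 2 I-boxes. A match describes letters in the window and not a bound site.

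The similarity of the RBCS genes bears on their counts. In coding sequence RBCS1A was 89.9 to 90.1 % identical to the other 3, which were 96.7 to 97.3 % identical to each other. Reads that aligned as well elsewhere had been removed, per the file headers. Of the 100-base stretches of coding sequence, 29.98 % in RBCS1B, 29.98 % in RBCS3B and none in RBCS2B or RBCS1A also occurred at another locus. For 50-base stretches the shares were 51.9 % in RBCS1B, 38.0 % in RBCS2B, 42.5 % in RBCS3B and 3.64 % in RBCS1A. The read length is not stated in the sources used here, so the levels of the 3 chromosome 5 genes are uncertain relative to other genes, whereas one gene is counted alike in every library.

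In Col0, RBCS1A ranked 3 among all gene models by CPM, and the 4 RBCS genes together took 1.496 ± 0.147 % of all counts (SD, n = 3). Per kilobase of the file's model length, RBCS1A stood at 8903 ± 861 CPM per kb, RBCS3B at 2845 ± 328, RCA at 2200 ± 57.3, RBCS2B at 1953 ± 137 and RBCS1B at 1592 ± 261 (SD, n = 3). The means of RBCS2B and RBCS1B differed by less than the sum of their SDs. Within each Col0 library RBCS2B was the higher, at 2080, 1969 and 1808 against 1852, 1594 and 1330 CPM per kb. The Calvin cycle enzymes were lower: PRK, GAPA1 and GAPB stood at 894 ± 29.1, 878 ± 39.1 and 777 ± 72.0 CPM per kb, SBPASE at 449 ± 48.3 and FBPase at 362 ± 20.2. PRK and GAPA1 did not differ beyond their spread.

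**Figure D1:**
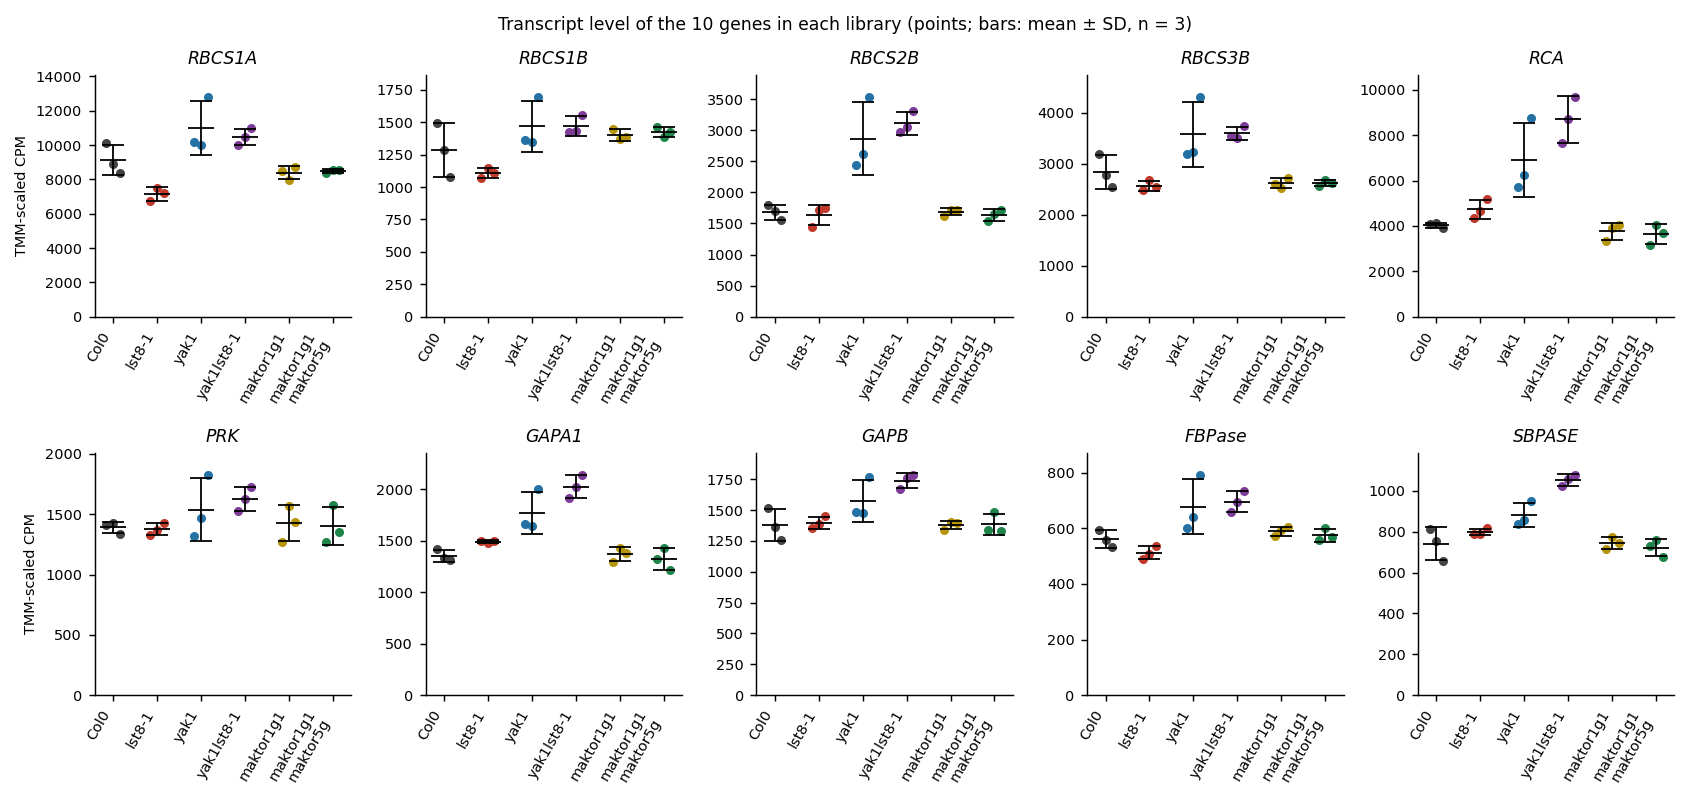
TMM-scaled CPM (vertical axis, linear, from 0) of the 10 genes in every library of the 6 genotypes; points are libraries in the order of their number, and bars the mean ± SD of 3 libraries. RBCS2B and RCA are higher in every library labelled yak1 or yak1lst8-1 than in any Col0, lst8-1 or maktor library, and the third yak1 library is the highest of its group for all 10 genes.

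The comparison of lst8-1 with Col0 asks what a low LST8-1 transcript goes with. RBCS1A was the only one of the 10 genes to pass the test. Its level was 10104, 8884 and 8390 CPM in the Col0 libraries 1 to 3 and 6747, 7516 and 7216 CPM in the lst8-1 libraries. The groups did not overlap. RBCS1A fell by 0.35 ± 0.098 on the log2 scale (SE), 0.784-fold, with an adjusted p of 0.0128 (edgeR quasi-likelihood test, Benjamini-Hochberg over 20619 genes, as for every adjusted p below). Of all genes tested, 27.5 % were called in this comparison, so 1 of 10 was below the background. Without Col0 replicate 1 the adjusted p was 0.057, without lst8-1 replicate 1 it was 0.0567, and without the 6 libraries numbered 1 it was 0.139, with log2 changes of -0.28, -0.31 and -0.24.

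The other RBCS genes had negative log2 changes in lst8-1 that did not pass, -0.21 for RBCS1B, -0.15 for RBCS3B and -0.04 for RBCS2B. Without Col0 replicate 3, RBCS1B passed as well (log2 change -0.33, adjusted p = 0.018). RCA and GAPA1 went the other way without passing. RCA was at 4070, 4115 and 3915 CPM in Col0 and at 4369, 4657 and 5186 CPM in lst8-1, a log2 change of 0.23 ± 0.14 (adjusted p = 0.223). GAPA1 was at 1311 to 1424 CPM in Col0 and at 1478 to 1501 CPM in lst8-1, a log2 change of 0.14 ± 0.086 (adjusted p = 0.243). Both genes were separated between the groups, as were 20.1 % of all genes tested that were higher in lst8-1. PRK, GAPB, FBPase and SBPASE had log2 changes from -0.14 to 0.11.

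Set against Col0, the libraries labelled yak1 had 4 of the 10 genes higher and none lower, where 11.9 % of all genes were called and 5.75 % called higher. The median log2 change was 0.27 over the 10 genes and -0.0070 over all genes tested. All 10 changes were positive. RCA, the activase, was at 5720, 6257 and 8764 CPM in the libraries labelled yak1, above every Col0 library.Its log2 change was 0.78 ± 0.14 (adjusted p = 0.00126). RBCS2B was at 1791, 1696 and 1557 CPM in Col0 and at 2437, 2618 and 3541 CPM in the libraries labelled yak1, with no overlap.

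GAPA1, a subunit of the plastid glyceraldehyde phosphate dehydrogenase, was at 1640 to 2007 CPM with the yak1 label and rose by 0.39 ± 0.086 on the log2 scale (adjusted p = 0.00676), again without overlap. In all, 5 of the 10 genes were higher in every library labelled yak1 than in any Col0 library, against 12.7 % of all genes. RBCS3B rose by 0.33 ± 0.10 (adjusted p = 0.0438), but its libraries overlapped, with 2554 to 3198 CPM in Col0 and 3196 to 4318 CPM with the yak1 label. This call was lost without yak1 replicate 3, at a log2 change of 0.18 (adjusted p = 0.19), and without the filter on low counts (adjusted p = 0.0538). It was also lost when Col0 replicate 2 or 3, any lst8-1 replicate, yak1lst8-1 replicate 2, maktor1g1 replicate 1 or 2 or maktor1g1maktor5g replicate 3 was left out, at adjusted p from 0.0505 to 0.143. When only these 6 libraries were fitted, GAPA1 (adjusted p = 0.086) and RBCS3B (adjusted p = 0.231) both missed the threshold. FBPase and SBPASE, phosphatases of the regeneration phase, were just above the threshold, at log2 changes of 0.27 (adjusted p = 0.0516) and 0.25 (adjusted p = 0.0543), with no overlap between the groups. Both passed without Col0 replicate 1 (adjusted p = 0.0387 and 0.0169), yak1 replicate 1 (0.0178 and 0.0487) or maktor1g1maktor5g replicate 2 (0.0493 and 0.0489), and FBPase without yak1lst8-1 replicate 1 (0.0465). Both also passed with DESeq2 (0.0153 and 0.00963), with RLE size factors (0.04 and 0.0396) and with a replicate block (0.0181 and 0.0263), and FBPase with library totals (0.0309). RBCS1A had a log2 change of 0.27 (adjusted p = 0.0813; 0.0364 without Col0 replicate 1, 0.0234 with DESeq2 and 0.0474 with a replicate block), and PRK, which makes the carbon dioxide acceptor, 0.14 (adjusted p = 0.439).

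The comparison of yak1lst8-1 with lst8-1 shares no library with that of yak1 with Col0. Here 9 of the 10 genes were higher, against 33 % of all genes called and 16.4 % called higher. The median log2 change was 0.44 over the 10 genes and -0.016 over all genes. All 10 genes were higher in every yak1lst8-1 library than in any lst8-1 library, as were 22.4 % of all genes tested.

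Among the RBCS genes, RBCS2B was at 1444, 1710 and 1754 CPM in lst8-1 and at 2966, 3051 and 3313 CPM in yak1lst8-1. RBCS1A was at 10031, 10445 and 10983 CPM in yak1lst8-1, above every lst8-1 library and 2 of the 3 Col0 libraries. RBCS3B rose by 0.49 ± 0.10 (adjusted p = 0.00169), from 2481 to 2673 CPM in lst8-1 to 3499 to 3749 CPM in yak1lst8-1. RBCS1B rose least of the RBCS genes, by 0.41 ± 0.10 (adjusted p = 0.00628), and stood at 1421, 1431 and 1559 CPM in yak1lst8-1 against 1071, 1147 and 1110 CPM in lst8-1.

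RCA was at 7644, 8731 and 9699 CPM in yak1lst8-1, the highest mean of this gene among the genotypes, and rose by 0.88 ± 0.14 over lst8-1 (adjusted p = 0.000124). Whether RCA splice forms differed cannot be read from a count per gene. Of the Calvin cycle enzymes, FBPase rose by 0.44 ± 0.088 (adjusted p = 0.000912) and GAPA1 by 0.44 ± 0.086 (adjusted p = 0.000802). SBPASE rose by 0.40 ± 0.081 (adjusted p = 0.00106) and GAPB by 0.32 ± 0.085 (adjusted p = 0.00865). PRK did not pass, at 0.24 ± 0.11 (adjusted p = 0.0975), but did without yak1 replicate 3 (adjusted p = 0.037), with a replicate block (0.0329) and when only these genotypes were fitted (0.0235).

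**Figure D2:**
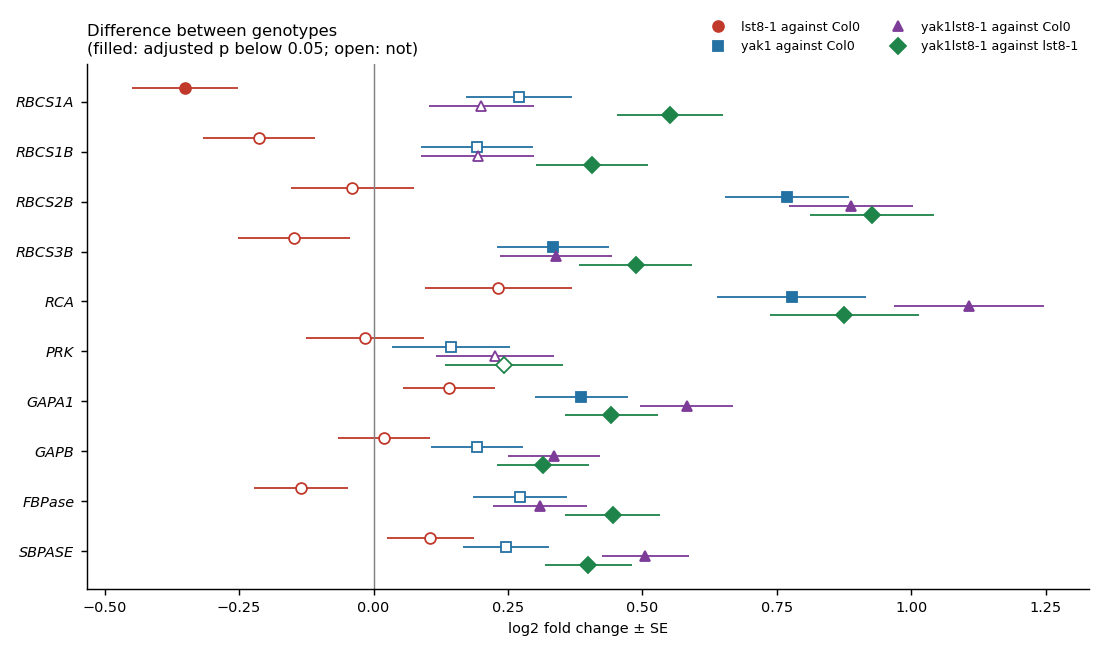
Log2 fold change ± SE (horizontal axis) of the 10 genes in 4 comparisons; filled symbols have an adjusted p below 0.05 in the edgeR quasi-likelihood test and open symbols do not. RCA and RBCS2B have the largest changes wherever a yak1-labelled group is compared with one without that label, up to 1.11 for RCA, and only RBCS1A is called in lst8-1.

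The yak1lst8-1 libraries were also set against Col0, a comparison that shares the Col0 libraries with that of yak1 and the yak1lst8-1 libraries with the one above. Of the 10 genes, 7 were higher and none lower, where 18.9 % of all genes were called and 10.3 % called higher. RCA rose by 1.11 ± 0.14 (adjusted p = 1.83e-05), RBCS2B by 0.89 ± 0.12 (adjusted p = 2.8e-05) and GAPA1 by 0.58 ± 0.086 (adjusted p = 0.000105). SBPASE was at 657 to 816 CPM in Col0 and at 1023, 1060 and 1079 CPM in yak1lst8-1, which lay apart. SBPASE rose by 0.51 ± 0.081 (adjusted p = 0.000216) and GAPB by 0.34 ± 0.085 (adjusted p = 0.00968). RBCS3B rose by 0.34 ± 0.10 (adjusted p = 0.0287) and FBPase by 0.31 ± 0.088 (adjusted p = 0.019). The calls of RBCS3B and FBPase were lost without Col0 replicate 2 (adjusted p = 0.0809 and 0.05), without Col0 replicate 3 (0.108 and 0.0619) and without yak1lst8-1 replicate 3 (0.0946 and 0.0769). RBCS3B was also lost without yak1lst8-1 replicate 1 (adjusted p = 0.0506) or replicate 2 (adjusted p = 0.0544), while RBCS1B passed without Col0 replicate 1 (adjusted p = 0.0442). In every yak1lst8-1 library 8 of the 10 genes were higher than in any Col0 library, against 17.7 % of all genes.

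Between yak1lst8-1 and yak1, none of the 10 genes passed edgeR's quasi-likelihood test, where 2.99 % of all genes were called. Unadjusted, 3 of them had p below 0.05, and DESeq2 called 1, SBPASE. SBPASE was at 838 to 948 CPM with the yak1 label alone and at 1023 to 1079 CPM in yak1lst8-1, a log2 change of 0.26 ± 0.081 (adjusted p = 0.0979), without overlap. RCA had a log2 change of 0.33 ± 0.14 (adjusted p = 0.245), and its groups overlapped through the third yak1 library. Without that library, RCA passed at 0.53 (adjusted p = 0.0178) and SBPASE at 0.31 (adjusted p = 0.0471).

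The interaction subtracts the change between Col0 and yak1 from the one between lst8-1 and yak1lst8-1 and so tests whether the change with the yak1 label differs with the LST8-1 level. None of the 10 genes passed, where 3.46 % of all genes did; unadjusted, none had p below 0.05, and DESeq2 called none. The point values were positive for all 10, from 0.06 for GAPA1 to 0.28 ± 0.14 for RBCS1A (adjusted p = 0.309), and the SEs of 0.11 to 0.19 are too wide for differences of that size to be detected.

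In maktor1g1 and maktor1g1maktor5g, none of the 10 genes passed edgeR's quasi-likelihood test against Col0, unadjusted p included, and DESeq2 called none; in each comparison 0.0679 % of all genes were called. The log2 changes ranged from -0.12 to 0.12 in maktor1g1 and from -0.15 to 0.15 in maktor1g1maktor5g, with SEs up to 0.14. With a replicate block, 90 of all genes were called higher and 148 lower in maktor1g1 over Col0. In maktor1g1maktor5g over Col0, 229 were higher and 424 lower with the block. None of the 10 genes was among them. RBCS2B was at 1623, 1714 and 1722 CPM in maktor1g1 and at 1533, 1657 and 1717 CPM in maktor1g1maktor5g, within the Col0 range except for 1 library. Between both maktor lines 0.0097 % of all genes were called and none of the 10, with none at an unadjusted p below 0.05 and none by DESeq2; the log2 differences lay between -0.05 and 0.02.

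The makeup of the RBCS transcripts differed between genotypes. RBCS2B took 10.8 to 11.6 % of the counts of the 4 RBCS genes in Col0, 12.3 to 13.9 % in lst8-1, 14.2 to 15.8 % with the yak1 label and 16.5 to 16.9 % in yak1lst8-1. These 4 ranges did not overlap. The share of RBCS1A was 60.7 to 61.8 % in Col0 and 55.9 to 56.7 % in yak1lst8-1. That of RBCS3B was 20.1 to 21.1 % in lst8-1 and 18.4 to 19.7 % in the other genotypes. The maktor lines differed from Col0 as well. RBCS1B took at most 9.02 % in Col0, but at least 9.51 % in maktor1g1 and 9.69 % in maktor1g1maktor5g. RBCS1A took at most 59.9 % in maktor1g1 and 60.1 % in maktor1g1maktor5g, below every Col0 library. The RBCS2B share of both maktor lines overlapped with Col0. These shares were not tested. All 4 RBCS genes together took 1.26 ± 0.0477 % of the library in lst8-1, 1.83 ± 0.180 % with the yak1 label and 1.80 ± 0.0411 % in yak1lst8-1 (SD, n = 3).

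Within a library, the count ratio of 2 genes does not depend on the scaling of that library. There were 0.177, 0.191 and 0.186 RBCS2B counts per RBCS1A count in Col0, and 0.214, 0.228 and 0.243 in lst8-1. With the yak1 label there were 0.239, 0.262 and 0.276, and in yak1lst8-1 0.296, 0.292 and 0.302. The maktor lines lay between 0.183 and 0.215. Only the highest lst8-1 and the lowest yak1 library overlapped among the first 4 genotypes. Averaged over both LST8-1 backgrounds, the ratio was 1.35-fold higher with the yak1 label (log2 0.43; 0.49 from Col0 to yak1 and 0.38 from lst8-1 to yak1lst8-1). Averaged over both yak1 labels, it was 1.19-fold higher with lst8-1 (log2 0.25; 0.30 and 0.20). Each gave p = 0.005 in an exact two-sided permutation test with 400 arrangements within backgrounds, the smallest p that these can give (Benjamini-Hochberg over both tests leaves it at the same value). The pair was chosen with the fold changes of both genes known, so this p is not independent evidence. RCA relative to RBCS1A ranged from 0.403 to 0.467 counts per count in Col0 and from 0.762 to 0.883 in yak1lst8-1, given as a description. The higher ratio in lst8-1 than in Col0 was not particular to RBCS2B. There RBCS2B itself had a log2 change of -0.04 and RBCS1A of -0.35. Relative to RBCS1A, every other member was higher in each lst8-1 library than in any Col0 library. RBCS3B, for example, ranged from 0.304 to 0.317 in Col0 and from 0.352 to 0.368 in lst8-1.

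**Figure D3:**
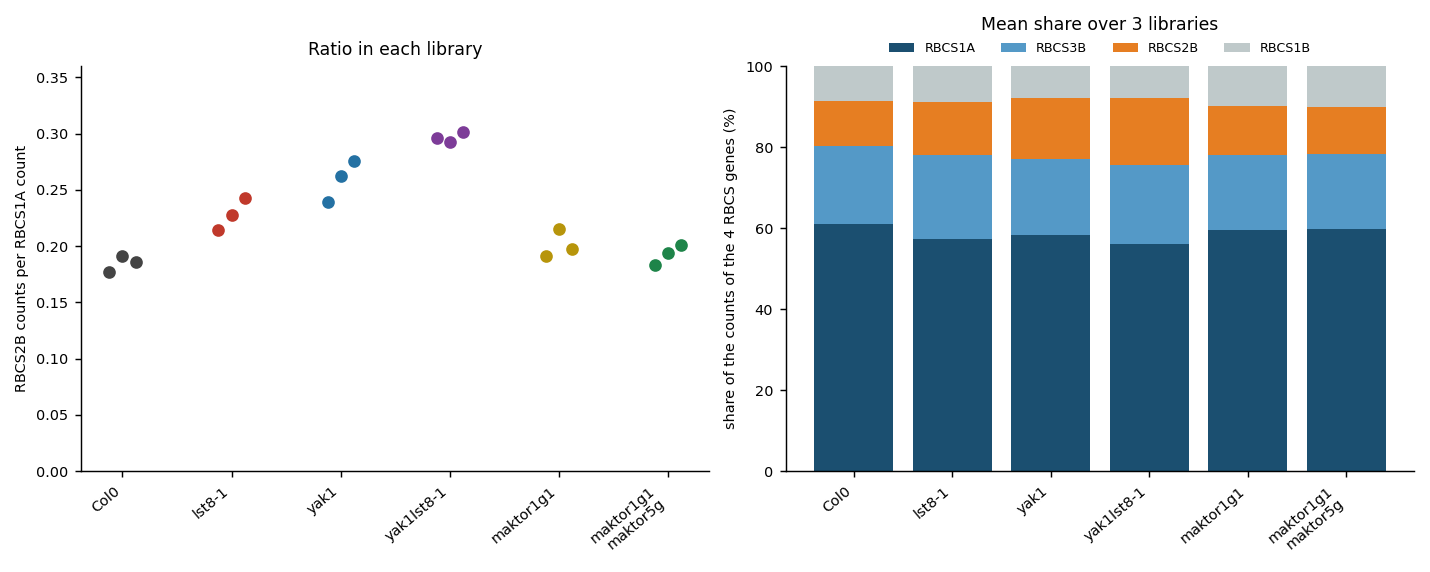
Left, RBCS2B counts per RBCS1A count (vertical axis, linear, from 0) in each library of the 6 genotypes; right, mean share (%) of each RBCS gene in the summed counts of the 4 RBCS genes over 3 libraries. The ratio runs from 0.177 to 0.191 in Col0 and from 0.292 to 0.302 in yak1lst8-1, and the RBCS2B share widens from Col0 to yak1lst8-1.

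Summed to 1 feature, RBCS1B, RBCS2B and RBCS3B rose by 0.45 ± 0.11 with the yak1 label over Col0 (adjusted p = 0.0108) and by 0.62 ± 0.11 in yak1lst8-1 over lst8-1 (adjusted p = 0.00027). This sum does not depend on which of these 3 neighbours a counted read was given to. It still lacks the reads removed because they aligned as well elsewhere. Of 100-base coding stretches, 29.98 % in RBCS1B and RBCS3B but none in RBCS2B were shared with another locus. The 3 genes may therefore not weigh alike in the sum. These 3 genes lie on the same chromosome as YAK1, which is 1241 kb apart from RBCS3B. Of the 108 tested genes between RBCS3B and YAK1, 8.33 % were called between yak1 and Col0, 2 higher and 7 lower, against 11.9 % of all genes. Between yak1lst8-1 and lst8-1, 30.6 % were called, 13 higher and 20 lower, against 33 %. Genes on the other side of YAK1 were not counted. Whether linkage to YAK1 has a part in the differences of these RBCS genes was not tested.

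Across the 18 libraries, log2 CPM of RCA and GAPA1 had the highest Pearson r among the 10 genes, 0.97, and RBCS1B and RCA the lowest, 0.35; these are descriptions over libraries that share genotypes. Outside the gene lists used here, the genes whose pattern was most like that of RBCS2B were AT4G16410 (r = 0.98), GS2 (0.98), which encodes plastid glutamine synthetase and lies 294417 bases from YAK1, HDR (0.97), an enzyme of plastid isoprenoid synthesis, CB5-D (0.96), a cytochrome b5, and cICDH (0.96), a cytosolic isocitrate dehydrogenase. For RBCS1A they were ACLA-1 (0.96), a subunit of ATP-citrate lyase, AT1G47640 (0.96), ATPD (0.95), a subunit of the plastid ATP synthase, AT5G28750 (0.95) and ACP4 (0.95), an acyl carrier protein.

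The other genes around the Calvin cycle were taken from gene lists. Their counts stand beside the shares of all genes called higher and lower, which were 14.1 and 13.4 % in lst8-1 over Col0, 5.75 and 6.11 % in yak1 over Col0, 10.3 and 8.65 % in yak1lst8-1 over Col0, and 16.4 and 16.6 % in yak1lst8-1 over lst8-1. Of 11 further Calvin cycle enzymes, 3 rose and none fell with the yak1 label over Col0, 3 rose and 1 fell in yak1lst8-1 over lst8-1, 4 rose and none fell in yak1lst8-1 over Col0, and 2 rose and 2 fell in lst8-1. The 4 called of 11 in lst8-1 and the 4 called of 11 in yak1lst8-1 over lst8-1 are near the 27.5 % and 33 % called among all genes. GAPA2, which encodes the second A subunit of the dehydrogenase, fell by 0.51 ± 0.10 in lst8-1 (adjusted p = 0.0013) and rose by 0.87 ± 0.10 in yak1lst8-1 over lst8-1 (adjusted p = 6.78e-06). The aldolase gene FBA1 rose by 0.45 ± 0.13 with the yak1 label (adjusted p = 0.0351). Its level was 386 to 473 CPM in Col0, 511 to 711 with the yak1 label and likewise 517 to 609 in lst8-1. Of the 3 CP12 genes, small proteins that bind PRK and the dehydrogenase in the dark, CP12-1 fell by 0.30 ± 0.092 (adjusted p = 0.0197) and CP12-3 by 0.45 ± 0.15 (adjusted p = 0.0358) in lst8-1, and CP12-1 rose by 0.31 ± 0.092 in yak1lst8-1 over lst8-1 (adjusted p = 0.0156).

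Of 12 tested genes of Rubisco assembly and repair, 2 fell and none rose with the yak1 label, against 11.9 % of all genes called. In lst8-1, 3 fell and none rose, against 27.5 %. In yak1lst8-1 over Col0, 3 fell and 1 rose, RBCX2, by 0.37 ± 0.11 (adjusted p = 0.0179). RBCX1, a Rubisco assembly chaperone, was at 107 to 131 CPM in Col0, 85.3 to 97.9 in lst8-1, 56.6 to 67.4 with the yak1 label and 38.2 to 46.6 in yak1lst8-1, and these ranges did not overlap. RBCX1 fell by 0.91 ± 0.092 from Col0 to yak1 (adjusted p = 8.06e-06) and by 1.08 ± 0.093 from lst8-1 to yak1lst8-1 (adjusted p = 2.71e-07). In yak1lst8-1 over lst8-1, 3 genes of the list rose and 2 fell. Of 9 genes of thioredoxin light activation, which switches Calvin cycle enzymes on through disulfide reduction, 2 fell and none rose in lst8-1, 1 fell with the yak1 label, and 3 rose and 1 fell in yak1lst8-1 over lst8-1.

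Photorespiration recycles the product of Rubisco's oxygenation reaction. Of 12 tested genes of this pathway, 7 rose and none fell in lst8-1, where 14.1 % of all genes were called higher, 1 rose with the yak1 label, 8 rose in yak1lst8-1 over Col0, and 3 rose and 1 fell in yak1lst8-1 over lst8-1. The listed gene PGLP1 had a count of 0 in every library and was not tested. GLDP2, a glycine decarboxylase subunit, rose by 1.16 ± 0.096 in lst8-1 (adjusted p = 1.38e-07). The catalase gene CAT2 rose by 0.75 ± 0.21 with the yak1 label (adjusted p = 0.0305). This was not particular to that label. CAT2 was at 403 to 484 CPM in Col0, 544 to 1040 with the yak1 label and 673 to 946 in lst8-1.

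Of 12 tested transcription regulators of photosynthesis genes, 3 rose and 1 fell in lst8-1, 4 rose with the yak1 label, and 7 rose and 1 fell in yak1lst8-1 over lst8-1, where 27.5 %, 11.9 % and 33 % of all genes were called. GLK1, which encodes an activator of chloroplast genes, was at 76.2 to 95.4 CPM in Col0, 32.9 to 54.0 in lst8-1, 118 to 157 with the yak1 label and 108 to 144 in yak1lst8-1. The lst8-1 libraries were the lowest and those of the yak1-labelled groups the highest. GNL and GNC, GATA factors linked to greening, rose in lst8-1 by 1.86 ± 0.17 (adjusted p = 5.97e-07) and 1.18 ± 0.12 (adjusted p = 1.37e-06). HYH, a bZIP factor of light signalling, rose by 0.82 ± 0.17 with the yak1 label (adjusted p = 0.00336). The 18 antenna genes had 1 higher with the yak1 label and 7 higher and 1 lower in yak1lst8-1 over lst8-1. None of the genes in these lists passed in any comparison with a maktor line.

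**Figure D4:**
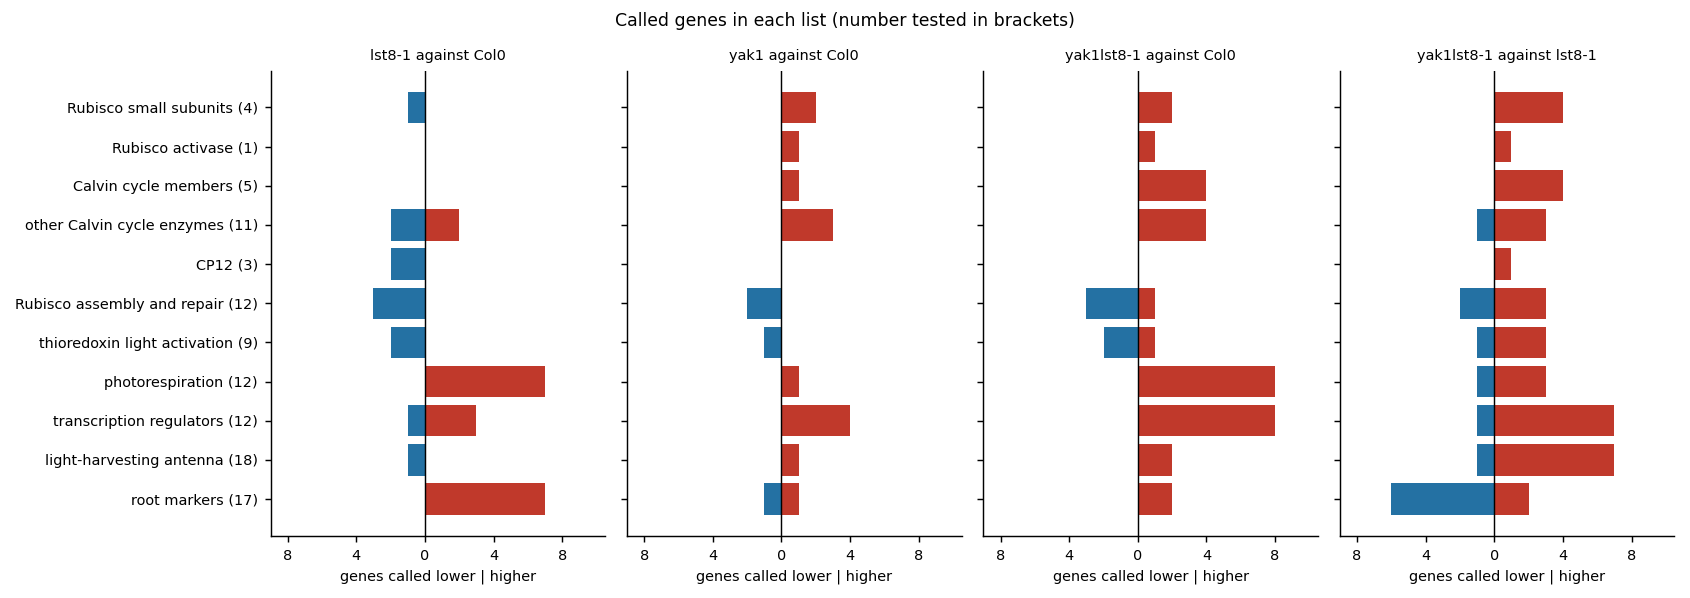
Number of genes called higher (red, right of 0) and lower (blue, left of 0) in each gene list for 4 comparisons, with the number tested in brackets. All 4 small subunit genes are called higher in yak1lst8-1 over lst8-1, against 16.4 % of all genes. Rubisco assembly and repair has 2 of 12 genes lower with the yak1 label, against 6.11 % of all genes. Photorespiration has 7 of 12 higher in lst8-1, against 14.1 %.

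Plants were sampled whole, and fewer green cells and less of these RNAs per green cell cannot be told apart. The 17 root markers summed to 3139 to 3379 CPM in Col0 and 2478 to 2613 with the yak1 label, and to 3117 to 4417 in lst8-1 and 2732 to 2990 in yak1lst8-1. In both pairs the sum was lower where the members were higher, without overlap. PYK10, a beta-glucosidase of roots, makes up most of it, at 3028 ± 143 CPM in Col0 and 2259 ± 32.8 with the yak1 label. By single genes, 1 root marker was higher and 1 lower with the yak1 label, where 5.75 and 6.11 % of all genes were. In yak1lst8-1 over lst8-1, 2 were higher and 6 lower, against 16.4 and 16.6 % of all genes. In lst8-1 over Col0, 7 were higher, against 14.1 %. The median log2 change of the 17 markers was 0.21 with the yak1 label, opposite to their sum. It was -0.47 in yak1lst8-1 over lst8-1. The part of tissue makeup in the results was not tested.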

How the data were processed

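Polyadenylated RNA of whole plants was sequenced as stranded single-end libraries, per the labels' protocols. Reads were aligned to TAIR10 with TopHat2 and Bowtie2, per the submitters' processing notes; versions are not stated. The deposited values are raw counts of reads per gene model, with 1.85 to 2.22 % of mapped reads removed for an equally good second alignment, per the file headers. Whether counting used the strand is not given in the sources used here. A model length is given in the authors' files and served only for levels per kilobase.

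Counts were analysed with edgeR 4.0.16 (R 4.3.3): filterByExpr left 20619 genes, libraries were scaled by TMM, and 1 robust quasi-likelihood model was fitted to all 18 libraries (common biological coefficient of variation 10.8 %), with two-sided tests and Benjamini-Hochberg adjustment in each comparison. Calls need an adjusted p below 0.05. Levels are TMM-scaled CPM; 3 counts correspond to 0.171 to 0.278 CPM. SEs come from the fold change and its F. DESeq2 1.42.0 was an alternative, as were other scalings, filters, sample sets, a replicate block and leaving out libraries. The scripts were tested on simulated data. The ratio of RBCS2B to RBCS1A counts was computed with a pseudocount of 0.5.

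The members and lists were chosen with earlier results of these data known. Named genes are all members, the LST8-1 and YAK1 checks, from each other list some of the up to 3 called genes with the smallest adjusted p in each comparison, and the 5 genes most alike to RBCS1A and RBCS2B. Sequences and coordinates come from RefSeq TAIR10.1; the count files give no coordinates. Same-numbered libraries of maktor1g1 and maktor1g1maktor5g deviated together in every pair; the replicate block changed no call there.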

Additional observations from a re-analysis of the deposited data

Results flagged for a closer look

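For 3 genes of the lists around the Calvin cycle, the change with the yak1 label differed between plants with an intact and with a low LST8-1 transcript. The test was the interaction term of the edgeR quasi-likelihood model with Benjamini-Hochberg adjustment. They were 1 of 11 further Calvin cycle enzymes, 1 of 12 photorespiration genes and 1 of 12 transcription regulators. None passed among the 3 CP12 genes, 12 genes of Rubisco assembly and repair, 9 genes of thioredoxin light activation, 18 antenna genes and 17 root markers. Of all genes tested, 3.46 % passed, and so few calls over all these lists show no excess over that share. Among all genes, 435 passed upward and 279 downward, but 209 and 129 when only the genotypes compared were fitted. For TKL2, a transketolase gene, the difference was -0.52 ± 0.12 on the log2 scale (SE, adjusted p = 0.0254), with a change of 0.05 where LST8-1 was intact and of -0.48 where it was low. For GLDP2, the glycine decarboxylase gene, it was -0.63 ± 0.13 (adjusted p = 0.0145), with changes of -0.06 and -0.70. For GLK1, the chloroplast gene activator, it was 0.88 ± 0.23 (adjusted p = 0.0434), with changes of 0.67 and 1.55. For the 10 Rubisco and Calvin cycle genes described above the interaction did not pass, which does not show that their changes were alike. Groups of 3 libraries are too small for a search for single outlying libraries.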

How the results depend on the processing

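The numbers called among the 10 genes stayed within 1.5 times of the reported ones in every alternative for yak1lst8-1 against lst8-1 (7 to 10, where 7 is of 8 features with the chromosome 5 RBCS genes summed) and against Col0 (5 to 8), and at 0 for the interaction and the maktor comparisons. Against Col0, yak1 gave 4 calls as reported, 7 with DESeq2, 7 with a replicate block, 2 when only its own and the Col0 libraries were fitted, 3 to 7 when 1 library was left out, and 8 without the 6 libraries numbered 1, an alternative chosen after seeing the data. The calls among all genes moved too. There 1186 were higher and 1260 lower as reported, and 1392 and 1192 with DESeq2, which tested more genes. The replicate block gave 2015 and 2096, the fit of only these libraries 450 and 479, and leaving out the libraries numbered 1 gave 1095 and 1084. For lst8-1 against Col0, leaving out 1 library gave 0 to 2 calls and leaving out the libraries numbered 1 gave 0. For yak1lst8-1 against yak1, DESeq2 gave 1 call, the replicate block 2 and leaving out 1 library 0 to 2. Among all genes, 387 were higher and 229 lower there as reported, 488 and 336 with DESeq2, and 989 and 612 with the replicate block. The cause was not tested.

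The log2 changes that changed sign were all uncalled in the reported fit. Over the fits that left out 1 library, the ranges in lst8-1 against Col0 were -0.0995 to 0.0426 for RBCS2B, -0.0506 to 0.00691 for PRK and -0.0486 to 0.0879 for GAPB. In yak1lst8-1 against yak1 they were -0.138 to 0.0459 for RBCS1A, -0.0604 to 0.110 for RBCS1B, -0.0710 to 0.154 for RBCS3B, -0.0175 to 0.217 for PRK and -0.0427 to 0.155 for FBPase, and in the interaction -0.0140 to 0.304 for RCA. Without the libraries numbered 1, the values were 0.0782 for RBCS2B and 0.00422 for PRK in lst8-1 against Col0; -0.0282 for RBCS1B, -0.0596 for RBCS3B and -0.00470 for FBPase in yak1lst8-1 against yak1; and -0.0323 for RBCS2B and -0.0157 for RBCS3B in the interaction. In yak1lst8-1 against yak1, RBCS1B also gave -0.00535 with RLE factors, -0.000864 with library totals, -0.00549 with DESeq2 and -0.00351 with only the genotypes compared, and RBCS3B -0.000755 with RLE factors and -0.000901 with DESeq2. Of the values for single genes over all alternatives, 1450 kept direction and side of the threshold, 32 passed newly and 24 no longer passed.

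Deviations of libraries with the same number correlated at -0.0523 to 0.554 (median 0.214, 31 of 45 pairs over 0.1), against -0.508 to 0.216 for libraries with different numbers (median -0.0979, 15 of 90 over 0.1). Of the pairs of genotypes compared, both maktor lines were the only one with every same-numbered pair over 0.1, and the labels do not say what a number marks. The log2 ratio of RBCS2B to RBCS1A was 0.43 for the yak1 label with the replicate block too, which in a balanced design cannot move it, and its alternatives kept the direction. Depth is no limit for genes with at least 6876 counts. With 3 libraries a group, SEs near 0.1 limit what can be called.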
